A study of Sus scrofa with 92 samples.

Results

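Genes that make, conjugate and move bile acids were followed through hemorrhagic shock and resuscitation in pig liver. The 9 genes are CYP7A1, CYP27A1, BAAT, SLC10A1, ABCB11, ABCC2, ABCC4, NR1H4 and NR0B2. They were chosen by symbol, and 10 of the 25322 pig Ensembl identifiers in the count table carry these symbols. SLC10A1 has a pair of identifiers, and the second, ENSSSCG00000022735, was at 0 counts in all 88 libraries used, so 9 identifiers hold the data. The symbols of ABCC4, BAAT and that second identifier come from the study's tables, and the other symbols from a gene name table.

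Messenger RNA was sequenced from peripheral liver biopsies of 23 juvenile male Yorkshire-Landrace pigs. All pigs were fasted overnight. The 5 carbohydrate prefed (CPF) animals then received a bolus of Karo syrup, a corn syrup, diluted with water an hour before induction, and the 18 fasted (FS) animals did not. Every animal was instrumented, splenectomized and put through the same polytrauma, made up of a blunt chest injury, a hemorrhage and a crush injury to the liver, followed by limited and then full resuscitation with fluid and shed blood on a ventilator. Biopsies were taken at Baseline (B), once the animal had stabilized from instrumentation, and again when full resuscitation had lasted 2 hours (FR2), 8 hours (FR8) and 20 hours (FR20). Of these animals 3 FS and 2 CPF died. The injured organ is itself the sampled organ, and the design holds no uninjured animals sampled at the same hours, so time, surgery, anaesthesia and shock cannot be told apart in any change from Baseline.

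Bile acids are made from cholesterol in hepatocytes. CYP7A1 (cholesterol 7α-hydroxylase) starts the classical route and sets its rate, CYP27A1 (sterol 27-hydroxylase) serves the alternative route, and BAAT joins the finished bile acid to glycine or taurine. SLC10A1 (NTCP) takes conjugated bile acids up from portal blood, ABCB11 (the bile salt export pump, BSEP) and ABCC2 (MRP2) carry bile acids and conjugates into the canaliculus, and ABCC4 (MRP4) exports them back toward blood. NR1H4 (FXR) is the nuclear receptor that senses bile acids, and among its targets are ABCB11 and NR0B2 (SHP), a repressor of CYP7A1.

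The 88 libraries hold 6877117 to 16613261 counts each, with a median of 12071957. A further 4 of the 92 libraries were left out: the FR8 library of CPF animal 1, with 4388 counts in all, and the Baseline libraries of FS animals 13, 14 and 16, which held 4, 899 and 5 counts of albumin (ALB), the leading hepatocyte marker. This leaves 15 FS animals at Baseline, 18 FS animals at each later time point, 4 CPF animals at FR8 and 5 at the other time points. Of 12 hepatocyte marker symbols 11 were found, none at 0, and their summed level in FS animals had a median of 236837 CPM (read counts scaled to a library total of 1 M, mega) at B, within a range of 135509 to 268254. It was 182508 CPM at FR2 (84291 to 230838), 141985 CPM at FR8 (83520 to 240254) and 90868 CPM at FR20 (49332 to 232033). Albumin leads this sum, with FS medians of 141496, 95802, 49875 and 27892 CPM over the same time points. In CPF animals the medians were 219916, 187489, 151098 and 81268 CPM. Of the 12 hepatocyte identifiers 2, 3 and 2 rose and 6, 5 and 5 fell against Baseline at FR2, FR8 and FR20 in FS animals (edgeR, adjusted p under 0.05). For this and the marker lists that follow, the share of all genes tested that passed in either direction was 41.4%, 39.3% and 33.8%. The cholangiocyte list, with 6 of 8 symbols found, had summed FS medians of 89.0, 472, 283 and 289 CPM, a sum led by CLDN4 (median 177 CPM over all libraries), and of its 5 members tested 2, 1 and 2 rose and 0, 2 and 1 fell. The neutrophil list, with 6 of 8 found and CSF3R at 0, had medians of 2.59, 27.8, 18.6 and 18.1 CPM. This sum was led by LCN2 (median 10.3 CPM over all libraries), and the 4 identifiers tested rose at each time point. Macrophage markers (4 of 9 found) had FS medians of 421, 358, 308 and 330 CPM, erythroid markers (3 of 5 found) 256, 245, 121 and 110 CPM, and striated muscle markers (4 of 12 found) at most 0.19 CPM in any group with a highest library of 98.1 CPM. The part of these lists in the results was not tested.

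Some libraries stood apart from the others of their own time point. By correlation over 7099 genes, 19 of the 88 libraries (16 FS, 3 CPF) were more like those of another time point, and 12 of these came from the 13 libraries used of FS animals 7, 13, 14 and 16. In each of FS animals 13, 14 and 16 the FR2 library was most like FR8, the FR8 library most like B and the FR20 library most like FR2, and these are the same animals whose Baseline libraries lacked albumin. The B library of FS animal 7 was most like FR8, its FR2 library most like FR20 and its FR8 library most like FR2. The others were the FR8 and FR20 libraries of FS animal 6 (most like FR20 and FR8), the B library of FS animal 3 (FR20), the FR20 library of FS animal 15 (FR8), the FR20 library of CPF animal 3 (FR8), and the FR8 and FR20 libraries of CPF animal 4 (FR20 and B). The labels were kept as given. Results are also given without these 19 libraries, a choice made after seeing the data. Since the libraries were picked by how like their time point they look, leaving them out can by itself set time points further apart and lower p. Values without them are a description and not independent support. In addition, the FR2 and FR8 libraries of FS animal 8 held 703 and 699 of 7130 well expressed genes at 0, where any other library held at most 1.

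Changes were tested with edgeR's quasi-likelihood test, with a term for each animal. A gene passed at a Benjamini-Hochberg adjusted p under 0.05 over all 13667 genes tested, and rose or fell is written only of genes that passed. In FS animals at FR2 against Baseline (FR2vB) 7 of the 9 genes passed, 1 up and 6 down, where 41.4% of all genes tested passed (20.3% up, 21.1% down). At FR8vB 8 passed, 2 up and 6 down, against 39.3% of all genes (19.9% up, 19.5% down). At FR20vB 6 passed, 2 up and 4 down, against 33.8% of all genes (17.4% up, 16.4% down). The median log2 fold change of the 9 genes was −0.47, −1.01 and −0.57 at FR2vB, FR8vB and FR20vB, and that of all genes tested was −0.04, −0.00 and 0.04. Past an absolute log2 fold change of 1 as well, 5, 6 and 6 of the 9 genes were left, against 11%, 11.8% and 9.94% of all genes. Without the 19 libraries 7, 8 and 6 of the 9 genes passed, while the shares above are those with all 88 libraries. In a bulk biopsy, fewer hepatocytes and less of a transcript per hepatocyte cannot be told apart.

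**Figure D1:**
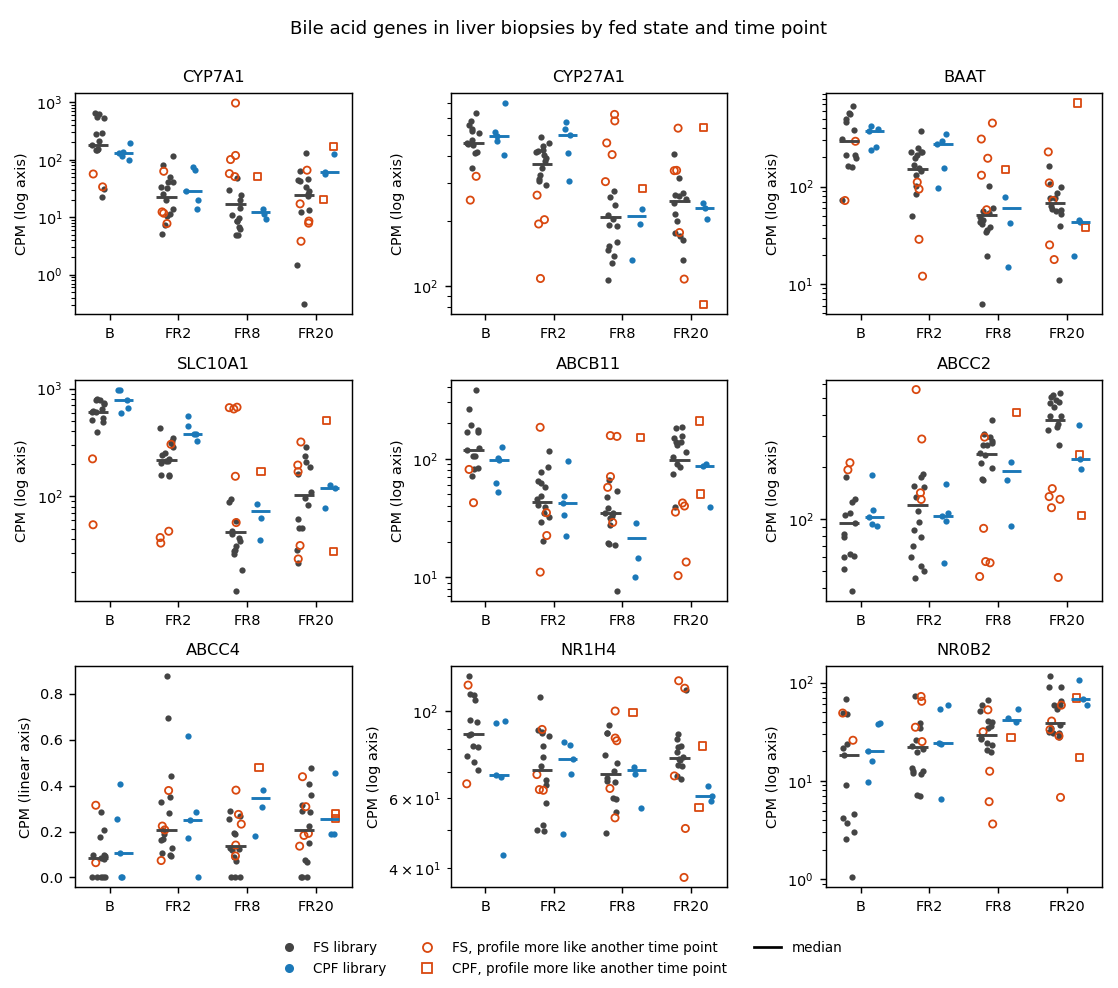
Level of each of the 9 genes in every library, in CPM by time point, on a log axis except for ABCC4, whose axis is linear. Dark grey dots are FS and blue dots CPF animals, lines are group medians, and orange open symbols (circles FS, squares CPF) mark the 19 libraries more like another time point. The FS median of SLC10A1 went from 604 CPM at B to 46.6 CPM at FR8, while that of ABCC2 went from 94.9 CPM at B to 373 CPM at FR20.

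CYP7A1 (ENSSSCG00000006238) fell at every later time point in FS animals and had a wide spread already at Baseline. Its 15 Baseline levels ran from 22.5 to 655 CPM with a median of 178 CPM. The 18 FS animals had a median of 22.9 CPM at FR2 (5.03 to 115), 17.3 CPM at FR8 (4.93 to 970) and 24.2 CPM at FR20 (0.304 to 131). The ranges overlapped at each time point, since 9, 10 and 8 of 18 animals at FR2, FR8 and FR20 were below the lowest Baseline animal, and 1 at FR8 was above the highest. The level was 8.26-fold lower at FR2vB (log2 fold change −3.05 ± 0.52 SE, edgeR adjusted p = 4.44e-06), with 14 of the 15 animals sampled at both times lower. It was 7.25-fold lower at FR8vB (−2.86 ± 0.61, edgeR adjusted p = 1.33e-04, lower in 13 of 15) and 9.20-fold lower at FR20vB (−3.20 ± 0.54, edgeR adjusted p = 5.10e-06, lower in 14 of 15). At FR8 FS animals 13, 14 and 16 had 970, 119 and 101 CPM. Once the 19 libraries were left out, FS levels at FR8 ran from 4.93 to 47.8 CPM with a median of 9.86 CPM. The log2 fold change at FR8vB was then −3.88, a description after that choice.

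CYP27A1 (ENSSSCG00000016199) fell in smaller steps. FS levels ran from 250 to 629 CPM at B (median 458), from 109 to 487 CPM at FR2 (median 366), from 107 to 621 CPM at FR8 (median 210) and from 108 to 537 CPM at FR20 (median 248). The number of FS animals below the lowest Baseline animal was 3 of 18 at FR2, 11 at FR8 and 9 at FR20. The log2 fold change was −0.47 ± 0.19 at FR2vB (edgeR adjusted p = 0.038), −1.01 ± 0.20 at FR8vB (edgeR adjusted p = 4.15e-05) and −1.03 ± 0.19 at FR20vB (edgeR adjusted p = 3.34e-05), with 14 of 15 animals lower each time. The call at FR2vB was lost on leaving out any of 7 of the 18 FS animals in turn (edgeR adjusted p up to 0.0589), among them FS animal 8 (0.0529). Between FR2 and FR8 CYP27A1 fell further in FS animals (−0.54 ± 0.19, edgeR adjusted p = 0.022, lower in 14 of 18), a comparison in which 28.4% of all genes passed. That call was lost on leaving out any of FS animals 5, 9, 10, 15 and 17 (edgeR adjusted p 0.054 to 0.0639). The FR8 levels of FS animals 13, 14 and 16 were 621, 580 and 405 CPM. With those 19 libraries removed the highest of 13 animals at FR8 was 275 CPM, below the lowest of 13 at B (351 CPM). The log2 fold change was then −1.43, and the choice of libraries can add to this gap. How many of all genes lie apart like this without the 19 libraries was not counted.

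BAAT (ENSSSCG00000005398), the conjugating enzyme, fell more at the later time points. FS levels had a median of 292 CPM at B (72.0 to 668), 150 CPM at FR2 (12.02 to 373), 51.0 CPM at FR8 (6.17 to 449) and 67.9 CPM at FR20 (11.1 to 227). Of 18 FS animals 3 at FR2, 13 at FR8 and 9 at FR20 lay below the Baseline range. BAAT was 2.09-fold lower at FR2vB (log2 −1.06 ± 0.35, edgeR adjusted p = 0.0121, lower in 11 of 15), 4.50-fold lower at FR8vB (−2.17 ± 0.40, edgeR adjusted p = 2.04e-05, lower in 14 of 15) and 4.93-fold lower at FR20vB (−2.30 ± 0.37, edgeR adjusted p = 2.20e-06, lower in 13 of 15). From FR2 to FR8 it fell by 1.11 on the log2 scale (SE 0.38, edgeR adjusted p = 0.0209), a call lost on leaving out any of 5 of the FS animals (up to 0.0571). The change at FR8vB was −3.04 on the log2 scale without the 19 libraries, given as a description.

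SLC10A1 (ENSSSCG00000002313), the uptake carrier, had its lowest FS levels at FR8. At Baseline the FS animals had a median of 604 CPM, from 54.6 CPM in animal 7 and 223 CPM in animal 3, both among the 19 libraries, up to 801 CPM. The medians were 218 CPM at FR2 (36.9 to 430), 46.6 CPM at FR8 (13.3 to 672) and 103 CPM at FR20 (23.9 to 320). The groups overlapped, with 3, 10 and 6 of 18 animals below the Baseline range at FR2, FR8 and FR20. The carrier was 2.70-fold lower at FR2vB (log2 −1.43 ± 0.40, edgeR adjusted p = 0.00299), 8.63-fold lower at FR8vB (−3.11 ± 0.48, edgeR adjusted p = 1.52e-06) and 6.35-fold lower at FR20vB (−2.67 ± 0.43, edgeR adjusted p = 2.40e-06), and lower in 14 of 15 animals each time. It also fell between FR2 and FR8 (−1.68 ± 0.44, edgeR adjusted p = 0.00302, lower in 15 of 18). The FR8 levels of FS animals 13, 14 and 16 were 666, 647 and 672 CPM, and the next highest was 154 CPM in FS animal 7. The groups no longer overlapped, once the 19 libraries were left out, in the 13 animals used at FR8 and FR20: levels at B were 395 to 801 CPM, at FR8 13.3 to 95.01 CPM and at FR20 23.9 to 288 CPM. Since those libraries were picked by profile, the choice can add to this gap. The number of all genes with such a gap was not counted. In the libraries left the log2 change of SLC10A1 from FR8 to FR20 was 1.53, where with all libraries the comparison called none of the 9 genes.

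ABCB11 (ENSSSCG00000015926), the canalicular pump for bile salts, fell early and was not called at FR20. FS medians were 118 CPM at B (42.6 to 383), 43.5 CPM at FR2 (11.1 to 184), 35.0 CPM at FR8 (7.68 to 157) and 96.9 CPM at FR20 (10.3 to 184). Below the Baseline range were 9 of 18 animals at FR2, 11 at FR8 and 6 at FR20. The change was −1.39 ± 0.35 on the log2 scale at FR2vB (edgeR adjusted p = 9.52e-04, lower in 14 of 15) and −1.504 ± 0.378 at FR8vB (edgeR adjusted p = 0.0011, lower in 15 of 15). At FR20vB it was −0.57 ± 0.34 (edgeR adjusted p = 0.193, lower in 11 of 15), and from FR8 to FR20 it was 0.93 ± 0.36 (edgeR adjusted p = 0.1, higher in 14 of 18). When the 19 libraries, picked by profile, were left out the log2 change of ABCB11 from FR8 to FR20 was 1.90. As a description, only 1 of 13 animals at FR20 was then below the Baseline range, against 13 of 13 at FR8. Over all genes such a count was not made.

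ABCC2 (ENSSSCG00000010543), the other canalicular exporter, moved the opposite way. FS levels had a median of 94.9 CPM at B (38.4 to 211), 120 CPM at FR2 (45.5 to 559), 237 CPM at FR8 (46.5 to 373) and 373 CPM at FR20 (45.9 to 537). The number of FS animals above the highest Baseline animal was 2 of 18 at FR2, 10 at FR8 and 13 at FR20. The log2 fold change was 0.62 ± 0.29 at FR2vB (edgeR adjusted p = 0.0826, higher in 9 of 15). ABCC2 rose 2.37-fold at FR8vB (1.24 ± 0.28, edgeR adjusted p = 2.99e-04, higher in 14 of 15) and 3.53-fold at FR20vB (1.82 ± 0.28, edgeR adjusted p = 1.22e-06, higher in 15 of 15). The 4 lowest of the 18 FR8 levels were in FS animals 7, 13, 14 and 16, at 56.7, 55.8, 46.5 and 88.2 CPM, and the next was 169 CPM. At FR20 the 5 lowest, 45.9 to 150 CPM, were in FS animals 6, 13, 14, 15 and 16, all among the 19 libraries. Without those libraries FR20 levels ran from 267 to 537 CPM, above the highest Baseline level of 175 CPM in each of 13 animals. The change was then 2.22 on the log2 scale, and picking libraries by profile can add to such a gap. Gaps of this kind were not counted over all genes.

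ABCC4 (ENSSSCG00000009498), the basolateral exporter, was close to the limit of detection. Baseline libraries of FS animals held 0 to 4 counts of it, FR2 libraries 1 to 10, FR8 libraries 0 to 5 and FR20 libraries 0 to 8. It was at 0 in 5 of 15 FS libraries at Baseline and in 0, 3 and 3 of 18 at the later time points. Summed over the group this is 16, 59, 38 and 56 counts, and in CPF animals 6, 13, 17 and 16. ABCC4 rose at FR2vB in FS animals (log2 1.27 ± 0.44, edgeR adjusted p = 0.0172, higher in 14 of 15), and this call was lost without FS animal 5 (1.00, edgeR adjusted p = 0.0681). The tally of 14 includes FS animals 7, 8 and 9, each with 1 count at both times, which differ only through library totals. The changes at FR8vB (0.50 ± 0.45, edgeR adjusted p = 0.398) and FR20vB (0.93 ± 0.44, edgeR adjusted p = 0.0981) did not pass. With a floor of 3 counts a library, most single values are at or under what the depth can resolve, and these libraries cannot show how ABCC4 moved in 1 animal.

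**Figure D2:**
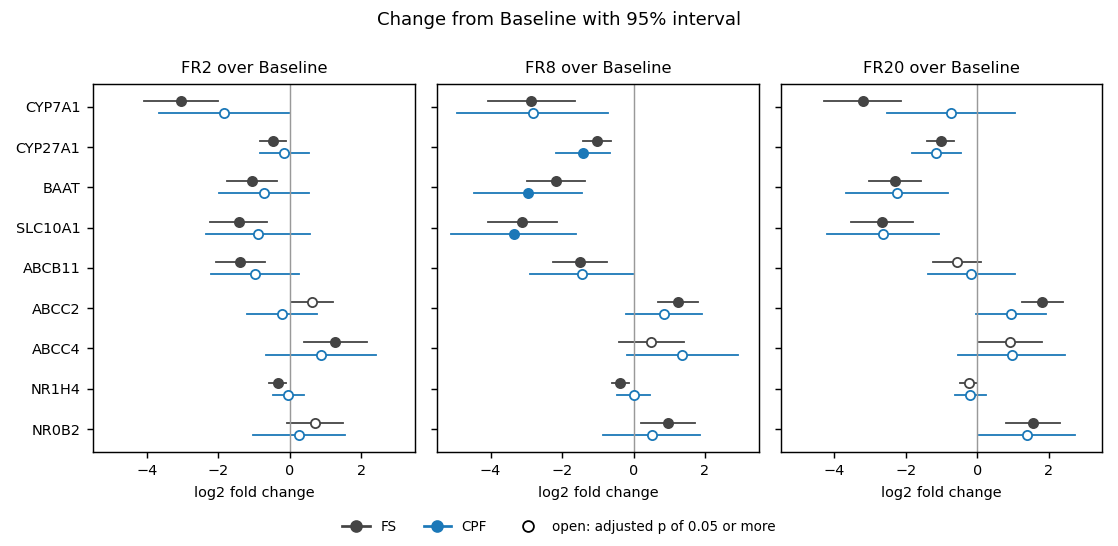
Log2 fold change from Baseline of the 9 genes at FR2, FR8 and FR20 with 95% intervals, FS in grey and CPF in blue; open symbols did not reach an adjusted p under 0.05. In FS animals CYP7A1, CYP27A1, BAAT and SLC10A1 are filled and below 0 in each panel, and ABCC2 is filled and above 0 at FR8 and FR20.

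NR1H4 (ENSSSCG00000000875), the receptor, changed by small amounts. FS medians were 87.3 CPM at B (65.4 to 122.8), 70.7 CPM at FR2 (49.6 to 109), 69.1 CPM at FR8 (48.9 to 100) and 76.0 CPM at FR20 (37.8 to 120). Most animals stayed within the Baseline range, with 7, 6 and 2 of 18 below it at FR2, FR8 and FR20. NR1H4 fell 1.26-fold at FR2vB (log2 −0.34 ± 0.12, edgeR adjusted p = 0.0186, lower in 10 of 15) and 1.29-fold at FR8vB (−0.37 ± 0.12, edgeR adjusted p = 0.0115, lower in 15 of 15). At FR20vB it did not pass (−0.24 ± 0.12, edgeR adjusted p = 0.112). Both calls were lost when the 3 Baseline libraries without albumin were kept, with log2 fold changes of 0.014 and 0.015.

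NR0B2 (ENSSSCG00000003565), the repressor, rose at the later time points. FS levels ran from 1.04 to 68.7 CPM at B (median 18.4), from 6.97 to 72.6 CPM at FR2 (median 21.9), from 3.65 to 66.4 CPM at FR8 (median 29.4) and from 6.81 to 117 CPM at FR20 (median 39.1). Nearly all animals lay within the wide Baseline range, with 2 of 18 above it at FR2, 0 at FR8 and 3 at FR20. The log2 fold change was 0.70 ± 0.39 at FR2vB (edgeR adjusted p = 0.14, higher in 10 of 15), 0.96 ± 0.38 at FR8vB (edgeR adjusted p = 0.0379, higher in 11 of 15) and 1.56 ± 0.38 at FR20vB (edgeR adjusted p = 0.00107, higher in 13 of 15). The call at FR8vB was lost on leaving out any of 9 of the 18 FS animals (edgeR adjusted p up to 0.114). Without the 19 libraries the changes at FR8vB and FR20vB were 1.16 and 1.91, given as a description.

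**Figure D3:**
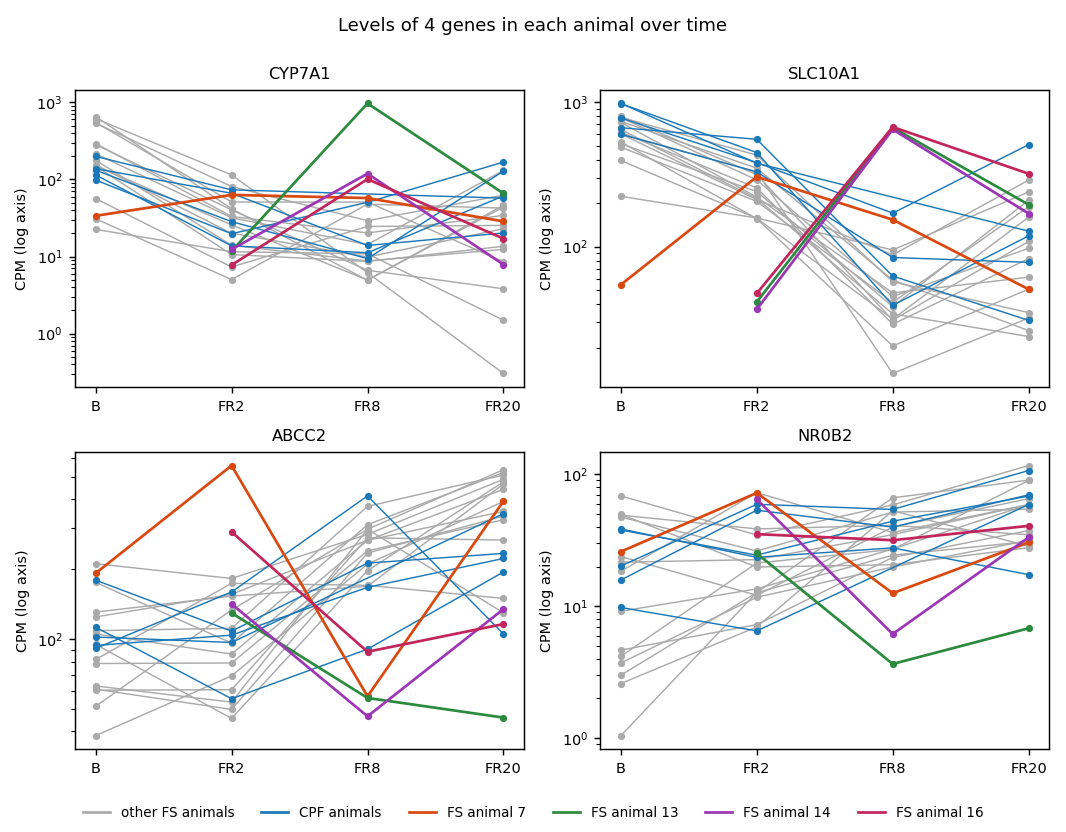
CPM of CYP7A1, SLC10A1, ABCC2 and NR0B2 by time point with 1 line per animal, FS animals in grey, FS animals 7, 13, 14 and 16 each in a colour of their own and CPF animals in blue. The lines of FS animals 13, 14 and 16 have SLC10A1 levels of 647 to 672 CPM at FR8, where the FS median is 46.6 CPM.

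Since NR0B2 is known as a repressor of CYP7A1, their levels were set against each other over FS animals at each time point, together with NR0B2 against ABCB11 and SLC10A1, 12 relations in all. At Baseline NR0B2 and CYP7A1 went opposite ways over the 15 FS animals (log2 CPM, Pearson r = −0.774, permutation p = 6.80e-04, adjusted 0.00816; Spearman rho = −0.796, permutation p = 5.90e-04, adjusted 0.00708). Without the 2 animals farthest from the median of NR0B2 r was −0.707, and over the 13 animals left after the libraries more like another time point were removed it was −0.756. The 4 animals with more than 500 CPM of CYP7A1 (FS animals 4, 6, 9 and 18, at 538, 549, 616 and 655 CPM) had 3.003, 2.59, 1.04 and 4.65 CPM of NR0B2. The 4 with the least CYP7A1 (FS animals 2, 3, 7 and 11, at 30.9, 56.6, 33.8 and 22.5 CPM) had 49.7, 49.1, 25.96 and 68.7 CPM of NR0B2.

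Of the other 11 relations 2 passed by Pearson's r, both at FR8, and 0 by Spearman's rho. NR0B2 with CYP7A1 had r = −0.253 at FR2 (permutation p adjusted 0.464) and r = −0.477 at FR20 (permutation p adjusted 0.122). Without the 2 animals farthest from the median of NR0B2, r at FR2 was −0.596 with CYP7A1, −0.713 with SLC10A1 and −0.529 with ABCB11. Over all 18 animals the last 2 were −0.375 and −0.008. Over the 14 animals with FR2 libraries most like their own time point, r was −0.334, −0.256 and 0.048 in the same order. At FR20 r with CYP7A1 was −0.304 without the 2 farthest and −0.560 over 13 such animals. At FR8, where the libraries of FS animals 13, 14 and 16 were most like Baseline, NR0B2 with CYP7A1 had r = −0.725 over all 18 animals (permutation p adjusted 0.00858) and rho = −0.443 (permutation p adjusted 0.308). It rested on few animals, since r was −0.300 without the 2 farthest from the median of NR0B2 and −0.325 over the 13 animals whose libraries were most like their own time point. NR0B2 with SLC10A1 at FR8 likewise had r = −0.692 (permutation p adjusted 0.0108) and rho = −0.393 (permutation p adjusted 0.308), with r = −0.304 without the 2 farthest animals and −0.265 over the 13. At Baseline r was −0.219 for NR0B2 with ABCB11 and −0.334 for NR0B2 with SLC10A1. In the 5 CPF animals at Baseline, too few for a correlation, NR0B2 was 9.79, 20.2, 15.8, 38.6 and 37.8 CPM in animals 1 to 5 and CYP7A1 was 199, 132, 138, 98.3 and 114 CPM, so the orders are the exact reverse of each other. Genes ordered in reverse to CYP7A1 in these 5 animals were not counted, so this is a description and not a test.

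**Figure D4:**
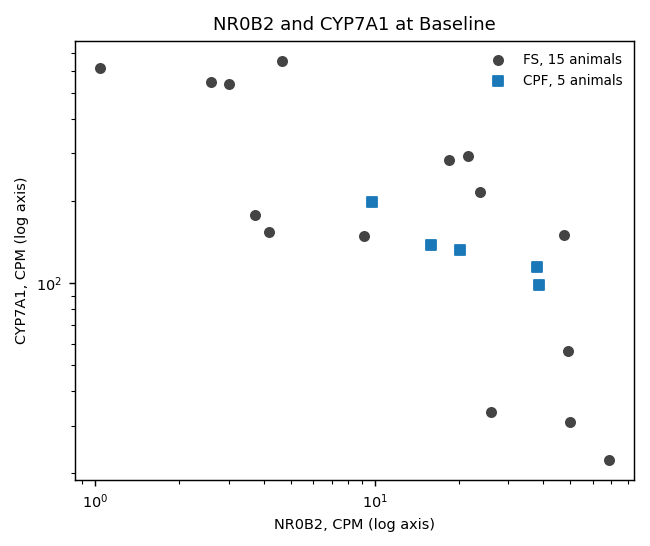
CYP7A1 against NR0B2 in CPM at Baseline, both axes log, with 1 point per animal for 15 FS and 5 CPF animals. The 4 FS animals with the highest CYP7A1, 538 to 655 CPM, have 1.04 to 4.65 CPM of NR0B2, a range that also holds FS animals 1 and 10 with 154 and 178 CPM of CYP7A1.

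Other genes of the same pathway were taken from 5 lists, on which 32 of 50 symbols were found. The list of detoxifying enzymes had none of its 6 symbols, and of the other 4 lists 26 genes were expressed enough to be tested. In FS animals 3 of the 26 rose and 11 fell at FR2vB, 3 rose and 7 fell at FR8vB, and 5 rose and 6 fell at FR20vB, where 41.4%, 39.3% and 33.8% of all genes tested passed in either direction. Their median log2 fold changes were −0.48, −0.20 and −0.09. Of the 7 synthesis and conjugation genes none rose and 4, 3 and 3 fell at FR2vB, FR8vB and FR20vB. CYP39A1, an oxysterol 7α-hydroxylase, had FS medians of 32.8, 13.7, 10.15 and 21.2 CPM at B, FR2, FR8 and FR20 and fell by 1.19 at FR2vB (edgeR adjusted p = 7.69e-05) and by 1.42 at FR8vB (edgeR adjusted p = 1.64e-05) on the log2 scale. ACOX2, the peroxisomal oxidase that shortens the bile acid side chain, fell by 1.33 at FR8vB (edgeR adjusted p = 3.73e-06) and by 1.08 at FR20vB (edgeR adjusted p = 5.14e-05).

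Of the 3 uptake genes none rose, and 2, 1 and 1 fell at FR2vB, FR8vB and FR20vB. For these and the export genes below, the share of all genes that passed in either direction was 41.4%, 39.3% and 33.8%. SLCO2B1, an organic anion carrier, had FS medians of 225, 75.1, 244 and 276 CPM at B, FR2, FR8 and FR20, fell by 1.37 on the log2 scale at FR2vB (edgeR adjusted p = 0.00457) and rose by 1.40 from FR2 to FR8 (edgeR adjusted p = 0.00319). Its lowest FS value at FR2 and at FR8 was 0 CPM. The FR2 and FR8 libraries of FS animal 8, with 703 and 699 well expressed genes at 0, are part of these changes. Values of SLCO2B1 without this animal are not given here. SLCO1A2, another organic anion carrier, fell by 1.20 at FR8vB (edgeR adjusted p = 4.36e-05). Of the 4 export genes 1, 1 and 3 rose and 1, 1 and 0 fell. ABCC3 (MRP3), a basolateral exporter, had FS medians of 21.1, 52.1, 52.5 and 72.4 CPM and rose by 1.13 at FR2vB (edgeR adjusted p = 7.01e-06), 1.07 at FR8vB (edgeR adjusted p = 1.40e-05) and 1.41 at FR20vB (edgeR adjusted p = 9.10e-08). SLC51A, a subunit of the basolateral transporter OST, rose by 2.24 at FR20vB (edgeR adjusted p = 7.31e-04) from a low level, with FS medians of 0.101 CPM at B and 1.26 CPM at FR20. ABCC6, a transporter of the same family as ABCC2, fell by 1.15 at FR8vB (edgeR adjusted p = 9.81e-04), and ABCG8, a subunit of the sterol exporter into bile, rose by 0.90 from FR8 to FR20 (edgeR adjusted p = 0.0165).

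Of the 12 receptors and regulators 2 rose at each time point and 4, 2 and 2 fell at FR2vB, FR8vB and FR20vB. Of all genes tested 41.4%, 39.3% and 33.8% passed in either direction. FGFR4 and KLB, receptor and co-receptor of the gut hormone that restrains CYP7A1, fell at FR2vB by 1.21 (edgeR adjusted p = 1.03e-06) and 1.33 (edgeR adjusted p = 0.00365) on the log2 scale. NR1I3 (CAR), a xenobiotic receptor, had FS medians of 16.96, 2.94, 18.5 and 23.4 CPM, fell by 1.73 at FR2vB (edgeR adjusted p = 0.00107) and rose by 2.02 from FR2 to FR8 (edgeR adjusted p = 2.37e-04). FOXA2, a hepatic transcription factor, fell by 1.13 both at FR2vB (edgeR adjusted p = 4.87e-05) and at FR20vB (edgeR adjusted p = 5.94e-05). The vitamin D receptor gene VDR rose by 1.30 at FR20vB (edgeR adjusted p = 0.0335), with FS medians of 0.182 CPM at B and 0.667 CPM at FR20. HNF4A, a hepatic nuclear receptor that drives CYP7A1, fell by 1.26 from FR2 to FR8 (edgeR adjusted p = 1.05e-05) with FS medians of 582, 1257, 454 and 382 CPM over the 4 time points. From FR8 to FR20 CYP39A1 rose by 0.80 (edgeR adjusted p = 0.0301).

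**Figure D5:**
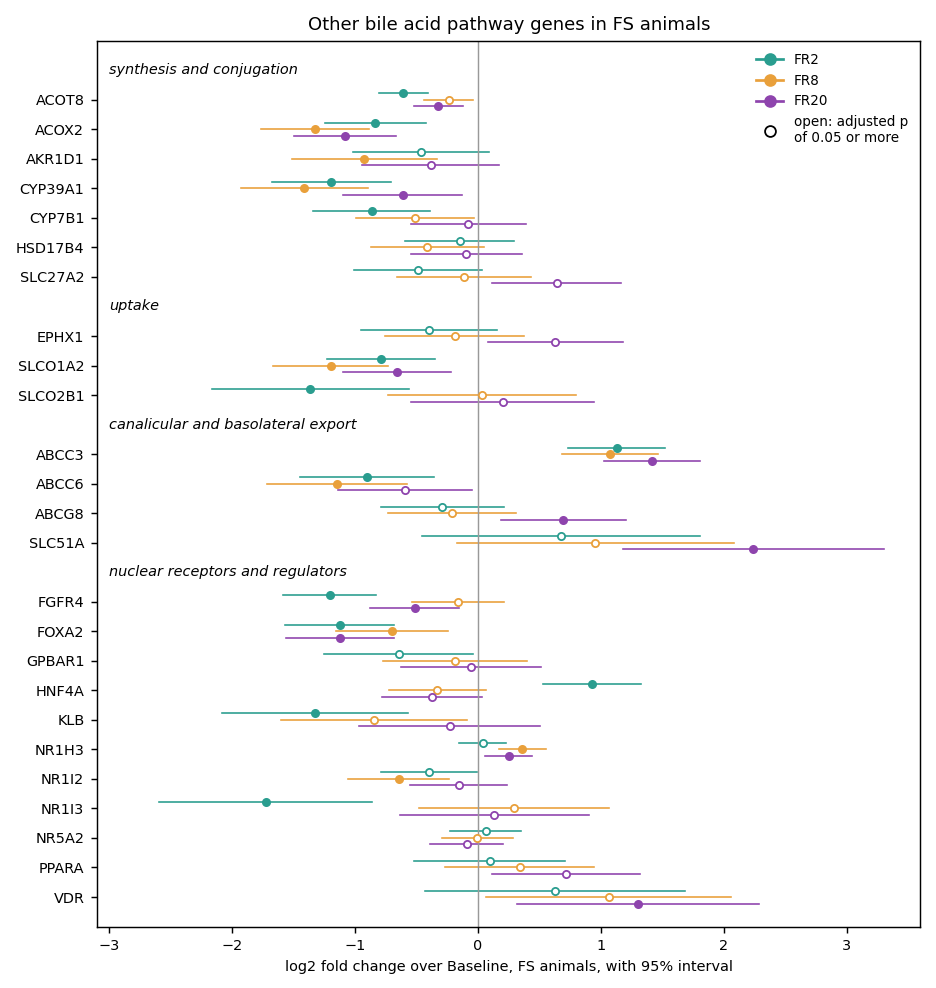
Log2 fold change from Baseline in FS animals of the other pathway genes tested and named, with 95% intervals and coloured by time point (FR2, FR8, FR20); open symbols did not reach an adjusted p under 0.05. ABCC3 lies above 0 at each time point, and NR1I3 is at −1.73 at FR2.

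Between the later time points in FS animals, 3 of the 9 genes passed from FR2 to FR8, all down, against 28.4% of all genes tested in either direction and 13.9% down. These are CYP27A1, BAAT and SLC10A1, given above. From FR8 to FR20 edgeR called 0 of the 9, and DESeq2 1, where 6.39% of all genes passed. At an unadjusted p under 0.05 were 2 of the 9 and 21.7% of all genes. Without the 19 libraries, as a description, 6 genes passed from FR2 to FR8, among them ABCC2 (log2 change 1.34), ABCB11 (−0.73) and ABCC4 (−1.10). From FR8 to FR20 4 then passed, all up: ABCB11, SLC10A1, ABCC2 (0.75) and CYP27A1 (0.34). Of all genes 4286 then passed from FR8 to FR20, against 874 with all libraries, so the 6.39% does not apply to these 4 genes. The 28.4% from FR2 to FR8 is likewise that of all libraries.

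In CPF animals 2 enzymes, CYP27A1 and BAAT, and the uptake carrier SLC10A1 fell at FR8. Of the 9 genes 3 passed at FR8vB, all down, against 13.3% of all genes tested (6.99% down). SLC10A1 was 979, 599, 665, 776 and 976 CPM in CPF animals 1 to 5 at Baseline and 84.2, 62.7, 171 and 39.3 CPM in animals 2 to 5 at FR8. Every FR8 level was below every Baseline level, and the log2 fold change was −3.35 ± 0.88 (edgeR adjusted p = 0.00929, n = 4 animals with both). How many of all genes lie apart like this in so few animals was not counted, here or for the genes that follow. BAAT was 238, 419, 369, 389 and 253 CPM at Baseline and 42.5, 78.1, 151 and 14.9 CPM at FR8, again with no overlap (−2.95 ± 0.76, edgeR adjusted p = 0.00844). CYP27A1 was 466, 516, 402, 494 and 701 CPM at Baseline and 228, 132, 283 and 194 CPM at FR8, also without overlap (−1.41 ± 0.38, edgeR adjusted p = 0.011). All 3 calls were lost without CPF animal 5 (edgeR adjusted p 0.0735 for SLC10A1, 0.0749 for BAAT and 0.0801 for CYP27A1).

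CYP7A1 at FR8 in CPF animals was 9.41, 13.9, 50.5 and 11.2 CPM in animals 2 to 5, below every Baseline level, but did not pass (−2.82 ± 1.06, edgeR adjusted p = 0.062). With the libraries more like another time point left out, CYP7A1 (−3.57) and ABCB11 (−2.40) passed as well, a description after that choice. Between FR2 and FR8 2 genes passed in CPF animals, both down, against 7.21% of all genes (3.17% down): BAAT (−2.22 ± 0.73, edgeR adjusted p = 0.0485) and CYP27A1 (−1.25 ± 0.38, edgeR adjusted p = 0.0326). Leaving out any 1 of the 5 CPF animals lost BAAT (edgeR adjusted p 0.068 to 0.161), and 4 of the 5 lost CYP27A1. Of the other pathway genes ABCC3 (1.04, edgeR adjusted p = 0.0492) rose at FR8vB in CPF animals, and SLCO1A2 (−1.80, edgeR adjusted p = 0.00705) and ACOX2 (−1.67, edgeR adjusted p = 0.00767) were lowest among the 4 that fell. From FR2 to FR8 HNF4A (−1.37, edgeR adjusted p = 0.026) and NR1I2, the xenobiotic receptor PXR (−1.28, edgeR adjusted p = 0.0348), fell.

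At FR2vB, FR20vB and from FR8 to FR20 edgeR called 0 of the 9 genes in CPF animals, with 1, 4 and 1 at an unadjusted p under 0.05 and 0, 3 and 0 by DESeq2. Of all genes tested 3.41%, 0.893% and 0.022% passed, and 20%, 16.5% and 10.9% were at an unadjusted p under 0.05. At FR20 CPF animal 4, whose library was most like Baseline, was the highest of 5 for SLC10A1 (508 CPM, others 31.0 to 128), BAAT (721 CPM, others 19.2 to 45.8) and CYP27A1 (540 CPM, others 82.7 to 244), and the lowest for ABCC2 (105 CPM, others 195 to 347) and NR0B2 (17.4 CPM, others 59.1 to 107). Without this animal SLC10A1 (−3.22, edgeR adjusted p = 0.028), BAAT (−3.17, edgeR adjusted p = 0.00973) and CYP27A1 (−1.49, edgeR adjusted p = 0.0195) passed at FR20vB. This animal is singled out after seeing its levels of these same genes, so these calls are a description and not independent support. The 0.893% of all genes at FR20vB is that with all animals. Without all the libraries more like another time point ABCC2 (1.32) and NR0B2 (1.98) passed too, a description after that choice.

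Whether the prior carbohydrate altered these changes was asked by setting the CPF change from Baseline against the FS change, which share no animal. EdgeR called 0 of the 9 genes at FR2vB, FR8vB and FR20vB, with 0, 0 and 1 at an unadjusted p under 0.05 and 0 by DESeq2, and 0% of all genes tested passed. At an unadjusted p under 0.05 were 2.9%, 3.42% and 3.81% of all genes. The smallest p was that of CYP7A1 at FR20vB, where the CPF change was higher than the FS change by 2.47 on the log2 scale (95% interval 0.35 to 4.59, unadjusted p = 0.023, edgeR adjusted p = 1). The CPF levels of CYP7A1 behind it were 199, 132, 138, 98.3 and 114 CPM at Baseline and 57.3, 129, 20.2, 168 and 61.1 CPM at FR20 in animals 1 to 5. The interval for SLC10A1 at FR8vB, −2.07 to 1.59 around −0.24, holds differences of several-fold in either direction, and so do those of BAAT (−2.38 to 0.82) and ABCB11 (−1.55 to 1.65). For NR1H4 the intervals were narrower, −0.20 to 0.78 at FR2vB and −0.44 to 0.54 at FR20vB.

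At each time point itself, CPF against FS gave 0 of 8 genes called by edgeR (ABCC4 was too low to be tested in these fits), with 0, 1, 0 and 1 at an unadjusted p under 0.05 at B, FR2, FR8 and FR20 and 0 by DESeq2. Of all genes tested 0.0342% passed at B and 0% at the later time points, and 7.66%, 5.58%, 5.17% and 3.25% were at an unadjusted p under 0.05 in the same order. SLC10A1 at FR2 was 378, 329, 553, 381 and 448 CPM in the 5 CPF animals, with a highest FS level of 430 CPM (log2 difference 0.92, 95% interval 0.16 to 1.69, edgeR adjusted p = 0.874). CYP7A1 was higher in CPF animals at FR20 by 1.46 on the log2 scale (0.10 to 2.82, edgeR adjusted p = 1) and lower at Baseline by 0.94 with an interval from −2.25 to 0.37 (edgeR adjusted p = 0.807). ABCB11 at Baseline was 102, 52.7, 127, 62.7 and 97.2 CPM in CPF animals against an FS median of 118 CPM (−0.71, −1.496 to 0.07, edgeR adjusted p = 0.682).

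Animals that died were set against those that lived at each time point with a term for fed state. EdgeR called 0 of 8 genes at each of the 4 time points, with 0 at an unadjusted p under 0.05 and 0 by DESeq2, and 0% of all genes tested passed. At an unadjusted p under 0.05 were 8.54%, 5.52%, 2.22% and 5.22% of all genes at B, FR2, FR8 and FR20. The nearest was NR1H4 at FR8, lower by 0.33 in animals that died (interval from −0.67 to 0.00, unadjusted p = 0.0518, edgeR adjusted p = 1). With 5 animals that died the intervals are wide, for CYP7A1 at FR8 from −4.50 to 0.72 on the log2 scale and for SLC10A1 at FR8 from −3.26 to 0.84. Without the 19 libraries, edgeR again called 0 of these genes in every comparison of fed states and of animals that died and lived.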

How the data were processed

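The authors aligned single reads to the pig genome Sscrofa10.2 with TopHat 1.5.0 after base calling with CASAVA 1.8.2, and HTSeq then gave 1 count for every pig Ensembl gene. The deposited table holds these raw counts, with no normalization and no filter. How HTSeq treated strand and shared reads is not given in the sources used here, so antisense or overlapping genes cannot be told apart. For the pair of SLC10A1 identifiers no read was counted to the second in the libraries used, and shared reads could have been dropped. The submitters' notes also name SAMtools and edgeR 3.2.4. Of 25322 identifiers 12504 received a symbol, 11804 of them from a gene name table and the rest from the study's tables.

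The count models ran in R 4.3.3 (DESeq2 1.42.0, edgeR 4.0.16, limma 3.58.1). Relations, tables and plots came from Python 3.11.15 (matplotlib 3.10.9, scipy 1.17.1, pandas 2.3.3, numpy 2.4.6). CPM are counts scaled to a TMM-adjusted library total of 1 M (mega). A gene whose CPM summed to 10 or more across a fit's libraries was tested with the quasi-likelihood F test, 2-sided, adjusted by Benjamini-Hochberg over all genes tested in a comparison. Changes from Baseline were fitted on 88 libraries with 23 animal terms and, in each fed state, its own terms for the 3 later time points. CPF was set against FS, and died against lived with a term for fed state, on the libraries of a time point. The replicate is the animal, sampled up to 4 times, and libraries of the same animal deviated together: their residual correlation had a median of 0.205 (94 of 126 pairs over 0.1), and that of different animals −0.016 (414 of 1791). Relations used log2 CPM with a prior count of 2 and 100000 resamples, 2-sided. Depth, given in the text, limits the precision of low genes, and 3 counts were taken as the floor of a library.

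The 9 genes and all lists were chosen with earlier results of these data known. Named are every one of the 9 genes and every gene of the other pathway lists past both thresholds in the FS changes from Baseline. Also named are the 2 highest and 2 lowest pathway genes that passed in other comparisons. The last named are the 2 genes most like each of the 9, among genes tested that had a symbol. Of the other pathway genes, 1 is counted but not reported here by name. Alternatives were RLE size factors, other filters, DESeq2, edgeR's likelihood ratio test, no animal terms, the libraries left out kept, each animal left out in turn with the dispersion trend of all animals, and, chosen after seeing the data, the 19 libraries more like another time point or FS animals 7, 13, 14 and 16 left out. Tests were tested on simulated data first. No sequence is shown, since none for these genes was in the sources used here.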

Additional observations from a re-analysis of the deposited data

Results flagged for a closer look

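Of 36 sets of 4 or 5 CPF values (9 genes, 4 time points), 5 held 1 animal far from the others by Dixon's criterion at 95%, which chance alone gives now and then. CPF animal 4 was the highest in 4 of them: CYP7A1 at FR8 with 50.507 CPM (others 9.405 to 13.92), ABCB11 at FR8 with 151.361 CPM (others 10.135 to 28.666), SLC10A1 at FR20 with 507.594 CPM (others 30.954 to 128.092) and BAAT at FR20 with 721.123 CPM (others 19.186 to 45.836). Both libraries of this animal were more like another time point over all genes, as the report describes. The fifth was ABCC2 at Baseline in CPF animal 3, with 179.389 CPM (others 91.242 to 112.486).

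The 3 FS Baseline libraries left out, which hold almost no albumin, still held some counts of these genes. CYP27A1 had 148, 89 and 90 counts in FS animals 13, 14 and 16. NR0B2 had 19 counts in animal 13 and 25 in animal 14, ABCC2 had 11 in animal 14 and ABCC4 had 5 in animal 13.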

How the results depend on the processing

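Counts of the 9 genes that passed are given below where an alternative took them outside 1.5 times the reported count. In FS animals, keeping the 3 Baseline libraries without albumin gave 4 genes at FR2vB (7 reported), 5 at FR8vB (8) and 0 from FR2 to FR8 (3), and in CPF animals 0 at FR8vB (3) and 0 from FR2 to FR8 (2). It also turned the sign of NR1H4 at FR2vB and FR8vB in FS animals (0.014 and 0.015) and of r between NR0B2 and CYP7A1 at Baseline (0.439). Fits with no replicate block, that is without the animal pairing, gave 0 genes from FR2 to FR8 in FS and 0 in CPF animals, and changed no other count by that much. DESeq2 gave 1 gene from FR8 to FR20 in FS and 3 at FR20vB in CPF animals (0 in both reported), and the likelihood ratio test 2 at FR20vB in CPF animals. No filter, and a sum of CPM of at least 3, each gave 1 gene from FR2 to FR8 in CPF animals (2). Without the 19 libraries more like another time point the counts were 6 from FR2 to FR8 and 4 from FR8 to FR20 in FS animals, and 5 at FR8vB, 5 at FR20vB, 4 from FR2 to FR8 and 1 from FR8 to FR20 in CPF animals, and CYP27A1 from FR8 to FR20 in FS animals turned to 0.341 on the log2 scale. Without FS animals 7, 13, 14 and 16 they were 6 from FR2 to FR8 and 3 from FR8 to FR20 in FS animals, and 3 at FR20vB and 4 from FR2 to FR8 in CPF animals. Beyond the construction of these settings, the cause was not tested. Leaving out 1 animal at a time gave 6 to 7, 7 to 8 and 6 genes at FR2vB, FR8vB and FR20vB in FS animals, 1 to 5 from FR2 to FR8 (1 without FS animal 5 or 9, 5 without 7) and 0 to 1 from FR8 to FR20 (1 without FS animal 6, 13, 14 or 16). In CPF animals it gave 0 at FR2vB, 0 to 4 at FR8vB (0 without animal 5), 0 to 3 at FR20vB (3 without animal 4), 0 to 1 from FR2 to FR8 (1 without animal 1) and 0 from FR8 to FR20. RLE size factors, the failed FR8 library kept and an added threshold on the fold change moved no count by over 1.5 times, and counts of 0 between fed states and between animals that died and lived stayed 0 under every setting. Over all genes, the count passed from FR8 to FR20 in FS animals was 874, and 4286 without the 19 libraries; at FR20vB in CPF animals it was 122, and 440 by DESeq2. With 4 or 5 CPF animals and few counts of ABCC4, a count of 0 does not show that nothing differed.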

Other observations

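As a description over all 88 libraries, which share animals and time points, the genes with levels most like each of the 9 were found by Pearson's r of log2 CPM. Only genes tested that had a symbol were searched, and 12504 of 25322 identifiers had one. SLC10A1 went most closely with MGST3 (r = 0.933), a microsomal glutathione transferase, and SLC17A4 (0.929), a phosphate and organic anion carrier. CYP27A1 went with ADHFE1 (0.923) and GSTZ1 (0.917), both metabolic enzymes, and BAAT with DMGDH (0.89), an enzyme of choline breakdown, and PODN (0.868). CYP7A1 had lower values, with NNT (0.789) and FN3K (0.786). ABCB11 went with GOLIM4 (0.915) and ABCC6 (0.855), and ABCC2 with ENTPD5 (0.89) and AP2B1 (0.876). The values were lower for NR0B2, with TUBA1C (0.648) and GAS2L1 (0.633), for NR1H4, with TTC39C (0.58) and COBLL1 (0.565), and for the scarcely counted ABCC4, with CRKL (0.408) and SNAP47 (0.402). Among the 9 genes themselves, r was 0.866 for CYP27A1 with SLC10A1 and 0.774 for CYP27A1 with BAAT, and −0.611 for CYP27A1 with ABCC2.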
